A study of Mus musculus with 6 samples.

Results

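Transcripts of heterotrimeric G protein subunits were described in type 1 conventional dendritic cells (cDC1s), with Gng4 set against the other gamma subunits. The 10 members are 5 gamma subunits (Gng4, Gng2, Gng5, Gng10 and Gng12), 2 beta subunits (Gnb1 and Gnb2) and 3 alpha subunits (Gnai2, Gnai3 and Gna13), out of 33 alpha, beta and gamma subunit genes and 32285 features counted. They were chosen by name, and Gng4 was chosen by its difference between KO and WT in these same libraries. Differences of the members between the groups are therefore given as a description, with no test. All 10 members passed the low-count filter, as did 10 of the other 23 subunit genes. The 13 subunit genes that did not pass have no fold change here, and 7 of them had no count in any library.

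The cells were sorted by flow cytometry from digested lymph nodes labelled mLN. Both groups were C57BL/6 mice given 50 µg of house dust mite extract (HDM) through the nose 24 h before the sort. WT mice are labelled wild type, and KO mice carry the genotype labelled Vps33BdeltaDC, a conditional deletion of Vps33b, which encodes a protein of endosomal and lysosomal membrane traffic. The series asks what the loss of Vps33b does to cDC1s. The sources used here do not name the promoter behind the deletion, the ages of the mice or how many mice went into a library. There were 3 libraries per group, with 11755944 to 18450678 counts each. The labels leave unsaid if the 3 libraries per group stem from different mice, so any p-value measures only a spread among these samples that may be technical. The targeted gene, Vps33b, was at 16.2, 19.1 and 13.8 CPM (counts scaled to a common library size, with TMM normalization) in WT replicates 1, 2 and 3, and at 5.0, 7.01 and 8.29 CPM in KO replicates 1, 2 and 3, so the KO libraries had less of the targeted transcript, as labelled. Vps33b had a log2 fold change of -1.28 ± 0.27 (SE, edgeR) and did not pass the test over all genes (edgeR quasi-likelihood adjusted p = 0.834). Not passing that test therefore does not show that a gene is unchanged. In bulk RNA, fewer cells of a type and less RNA per cell cannot be told apart.

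The labelled cell type was checked against its markers. All 13 cDC1 markers passed the filter, 2 of them with a log2 fold change above 0, and together they summed to 2764 to 3347 CPM over the libraries. Markers of mature dendritic cells, such as Ccr7 and Fscn1 (8 of 9 with a log2 fold change above 0), summed to 16931, 15848 and 16752 CPM in WT replicates 1 to 3 and to 16580, 19560 and 22361 CPM in KO replicates 1 to 3. Monocyte and macrophage markers (3 of 8 above 0) summed to 152 to 296 CPM in 5 libraries and to 589 CPM in KO replicate 3. KO replicate 3 also had the highest sums of cDC2 markers (227 CPM, against 100 to 163 CPM in the other 5 libraries), of neutrophil markers (8.2 CPM, against 0.676 to 3.91 CPM) and of stromal and endothelial markers (32 CPM, against 12.7 to 27.2 CPM). Its sums were the highest for pDC markers (170 CPM, against 111 to 153 CPM), NK cell markers (7.67 CPM, against 2.64 to 6.81 CPM) and the cDC1 markers themselves too. T cell markers summed to 58.6 to 78.3 CPM and B cell markers to 132 to 408 CPM, with no marker of either list at 0 in all libraries. Erythroid markers summed to 2.36, 3.18 and 56.5 CPM in WT replicates 1 to 3 and to 102, 57.3 and 3.09 CPM in KO replicates 1 to 3.

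A heterotrimeric G protein carries the signal of a membrane-spanning receptor into the cell. The alpha subunit binds GDP at rest and GTP once a receptor is engaged, whereupon it separates from the tightly joined beta and gamma pair, and both parts act on effectors. The gamma subunit anchors the pair in the membrane through a lipid placed on a cysteine near its end. In dendritic cells the chemokine receptor CCR7, which steers mature cells toward and within lymph nodes, signals through alpha subunits of the Gi class.

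The gamma subunits are small proteins encoded by short and related reading frames, which bears on whether reads can be told apart. The ends of the reading frames of the 5 gamma members are shown first, because they hold the lipid attachment site that all share. Each line gives the last 30 bases before the stop codon in GENCODE M21 transcripts (build mm10), 5′ to 3′ on the coding strand. Capitals mark the final 12 bases, the codons of the so-called CaaX box, whose first codon is a cysteine codon in all 5.
Gng4: cgggagaagaagttcttcTGCACCATCCTC
Gng2: cgggagaagaagttcttcTGCGCCATCCTT
Gng12: ttcaaggataagaagaccTGCATCATCTTA
Gng10: ttccgggagcccaggtccTGTGCTCTACTT
Gng5: ttcagaccccagaaagtcTGCTCCTTTTTG

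Among the gamma members, Gng4 was most like Gng2 over the whole reading frame, and the other gamma genes were not aligned. The reading frames hold 228 bases in Gng4, 216 in Gng2, 219 in Gng12, and 207 in both Gng5 and Gng10, stop codon included. In a global alignment with Gng4, 75.5% of columns were identical for Gng2, 69.3% for Gng12, 59.2% for Gng10 and 54.1% for Gng5. The Gng4 and Gng2 frames are printed in full, Gng2 being the closest to Gng4 among the gamma members, again with the CaaX codons in capitals.
Gng4: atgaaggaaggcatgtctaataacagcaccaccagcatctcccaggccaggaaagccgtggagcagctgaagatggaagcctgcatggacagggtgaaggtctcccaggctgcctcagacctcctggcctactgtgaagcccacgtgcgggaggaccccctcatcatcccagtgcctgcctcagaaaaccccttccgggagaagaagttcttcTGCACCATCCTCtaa
Gng2: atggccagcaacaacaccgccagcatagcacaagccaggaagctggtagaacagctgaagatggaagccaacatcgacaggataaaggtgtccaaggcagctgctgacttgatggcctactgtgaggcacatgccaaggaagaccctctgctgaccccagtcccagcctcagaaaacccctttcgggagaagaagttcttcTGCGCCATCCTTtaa

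Despite this kinship, the longest identical stretch between any Gng4 transcript and any Gng2 transcript was 21 bases, against reads of 150 bases. With Gng10, Gng12 and Gng5 it was 15, 13 and 11 bases. Of the distinct 50-base words of Gng4 transcripts, 0.973% also occurred in transcripts of another gene, on either strand, the lowest share among the gamma members. The same share was 0% for Gnb1 and Gnai3, between 1.52% and 5.94% for Gnb2, Gng12, Gna13, Gnai2 and Gng5, and 18.9% for Gng2, mostly through the opposite-strand gene Gm48283. It was 71.5% for Gng10, through the same-strand gene model Gm20503, which is not among the features counted. Reads from the sequence that Gng10 shares with Gm20503 cannot be told apart. Those from the sequence that Gng2 shares with Gm48283 can be told apart only by strand. The sources used here do not say how the counting treated strand and shared reads, so the levels of Gng10 and Gng2 are uncertain.

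Gng4 (ENSMUSG00000021303) spans bases 13784059 to 13827896 of chromosome 13 (mm10, plus strand). It had 365, 197 and 242 counts in WT replicates 1, 2 and 3 and 483, 664 and 597 counts in KO replicates 1, 2 and 3. As normalized levels these were 20.1, 13.3 and 12.8 CPM in WT, against 35, 38.8 and 52.7 CPM in KO. All 3 KO libraries lay above all 3 WT libraries, and the lowest KO value was above the highest WT value by a wide gap. Mean levels were 15.4 ± 4.04 CPM for WT and 42.1 ± 9.30 CPM for KO (SD, n = 3 each), a 2.74-fold ratio of the means and a log2 fold change of 1.44 ± 0.23 (SE, edgeR). KO replicate 3, the highest, is also the library with the highest sums of the marker lists named above other than T cell, B cell and erythroid markers. The Gng4 log2 fold change without that library was 1.25 ± 0.24. The part of those cell types in the Gng4 difference was not tested. Among WT libraries the highest Gng4 level was in replicate 1, and without it the log2 fold change was 1.68 ± 0.25. That library had the highest WT sums of monocyte, cDC2, neutrophil, NK cell, T cell, stromal and mature dendritic cell markers. Its sums of cDC1, pDC, B cell and erythroid markers were the lowest of WT. KO replicate 2, with 38.8 CPM of Gng4, had the lowest monocyte marker sum of all, 152 CPM, and the lowest T cell and stromal sums. Its neutrophil, pDC and mature dendritic cell sums were the highest after those of KO replicate 3. The bearing of any of these sums on Gng4 was not tested.

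**Figure D1:**
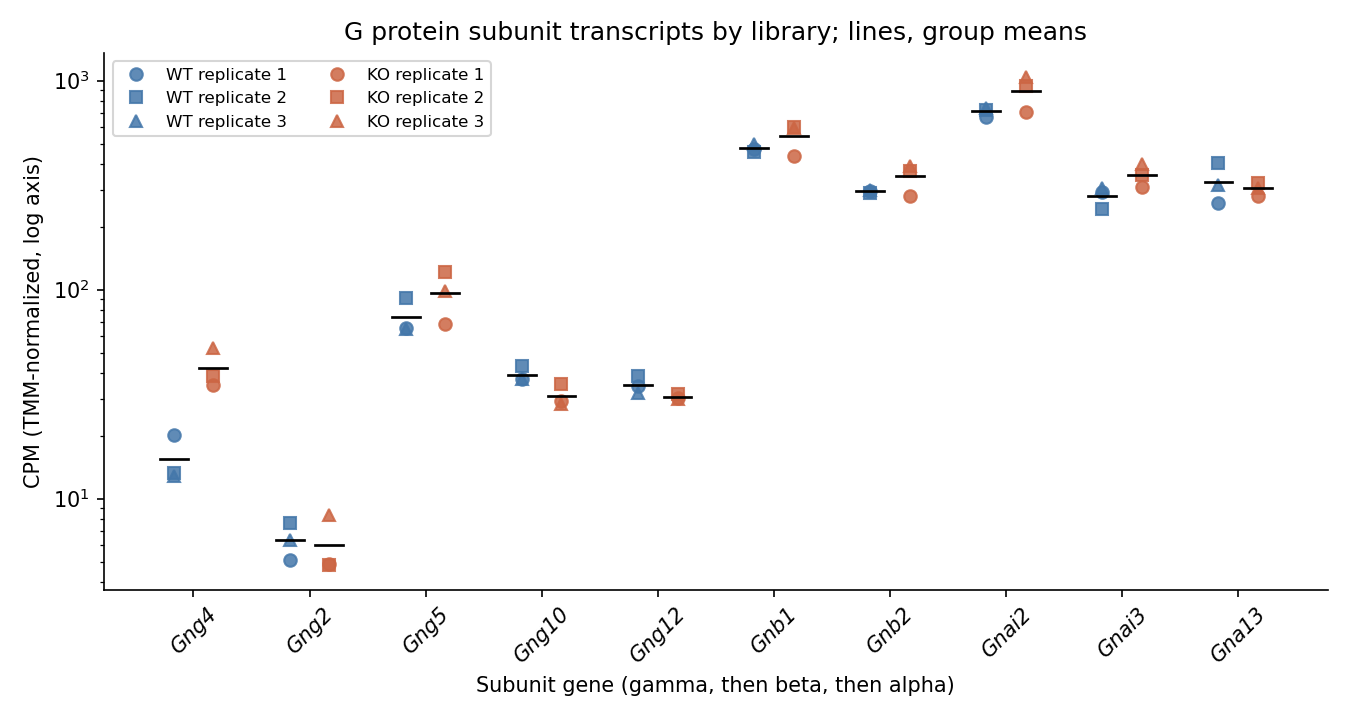
Level of each of the 10 members (x axis, gamma, beta and alpha subunits in that order) in CPM on a log axis, with 1 point per library and a line at each group mean. Gng4 is the only member with a clear gap between the groups, from 20.1 CPM at most in WT to 35 CPM at least in KO.

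The other gamma members differed far less between the groups than Gng4. Gng5 (ENSMUSG00000068523, chromosome 3, 146499807 to 146505572) was the gamma member with the highest CPM, at 65.7, 91.4 and 64.6 CPM in WT, against 68.7, 122 and 98.8 CPM in KO. Its groups overlapped, since WT replicate 2 lay above KO replicate 1, and its log2 fold change was 0.39 ± 0.21. Gng10 (ENSMUSG00000038607, chromosome 4, 59035088 to 59041903) was at 37.5, 42.9 and 37.3 CPM in WT and at 29.4, 35.5 and 28.3 CPM in KO. Every KO library was below every WT library, by a small gap, and the log2 fold change was -0.32 ± 0.17. Gng12 (ENSMUSG00000036402, chromosome 6, 66896397 to 67021350) was at 34.6, 38.4 and 32 CPM in WT and at 30.2, 31.7 and 29.9 CPM in KO. Here too every KO library was below every WT library, although KO replicate 2 and WT replicate 3 nearly met, with a log2 fold change of -0.19 ± 0.16. Gng2 (ENSMUSG00000043004, chromosome 14, 19872559 to 19977627) was the lowest gamma member. It was at 5.06, 7.64 and 6.35 CPM in WT, against 4.85, 4.79 and 8.38 CPM in KO, with groups that overlapped and a log2 fold change of -0.11 ± 0.34.

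Among the gamma genes that are not members, Gngt2, known as a gamma subunit of cone photoreceptor transducin, was also well counted. It was at 19.1, 16.8 and 18.2 CPM in WT and at 17.6, 26.9 and 27.9 CPM in KO. KO replicate 1 lay within the WT range and KO replicates 2 and 3 above it, and its log2 fold change of 0.42 ± 0.22 did not pass (edgeR quasi-likelihood adjusted p = 0.834). Exons of Gngt2 overlap Abi3, on the opposite strand, over 12.5% of their bases. The remaining 6 gamma genes did not pass the filter. Gng8, Gng11 and Gngt1 were at 0 in every library, which allows up to 0.163 to 0.255 CPM depending on the library (3 counts, counting error only), and Gng3, Gng7 and Gng13 stayed at or under 1.11 CPM.

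Per length, Gng4 stood below Gng12 in WT and above it in KO. Levels were divided by the length of all annotated exons of a gene (CPM per kb) so that genes could be compared. In WT the order was Gng10 (29.8 ± 2.42 CPM per kb), Gng5 (26.7 ± 5.48), Gngt2 (9.60 ± 0.63), Gng12 (7.41 ± 0.679), Gng4 (4.61 ± 1.21) and Gng2 (1.45 ± 0.295). Only Gng10 and Gng5 overlapped as neighbours in that order. In KO it was Gng5 (34.9 ± 9.62 CPM per kb), Gng10 (23.6 ± 2.95), Gngt2 (12.8 ± 3.02), Gng4 (12.6 ± 2.78), Gng12 (6.47 ± 0.199) and Gng2 (1.37 ± 0.468). There the ranges of Gng5 and Gng10 overlapped, as did those of Gngt2 and Gng4. Gng4 was thus below Gng12 in 3 of 3 WT libraries and above it in 3 of 3 KO libraries, at 0.491 to 0.82 times the Gng12 level in WT and 1.64 to 2.49 times in KO.

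As a share of all gamma transcripts per length, Gng4 made up 7.79, 4.51 and 5.19% in WT replicates 1 to 3 and 14, 11.0 and 16.4% in KO replicates 1 to 3. The means were 5.83 ± 1.73% and 13.8 ± 2.70% (SD, n = 3 each). Gng10 took the reverse course, from 37.0, 36.9 and 38.4% to 30, 25.6 and 22.4%, while Gng5 held 30.8 to 37.4% in WT and 33.3 to 41.8% in KO. The sum of all gamma subunits without Gng4 was 75.2 ± 8.05 CPM per kb in WT and 79.5 ± 14.9 CPM per kb in KO, a difference within the spread. Without length scaling, Gng4 held 6.33 to 11.0% of the gamma counts in WT and 14.9 to 21.4% in KO. Counting error alone gave a 95% Wilson interval of 9.98 to 12.1% around the highest WT share and of 13.9 to 16% around the lowest KO share, which says nothing of the spread between samples.

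**Figure D2:**
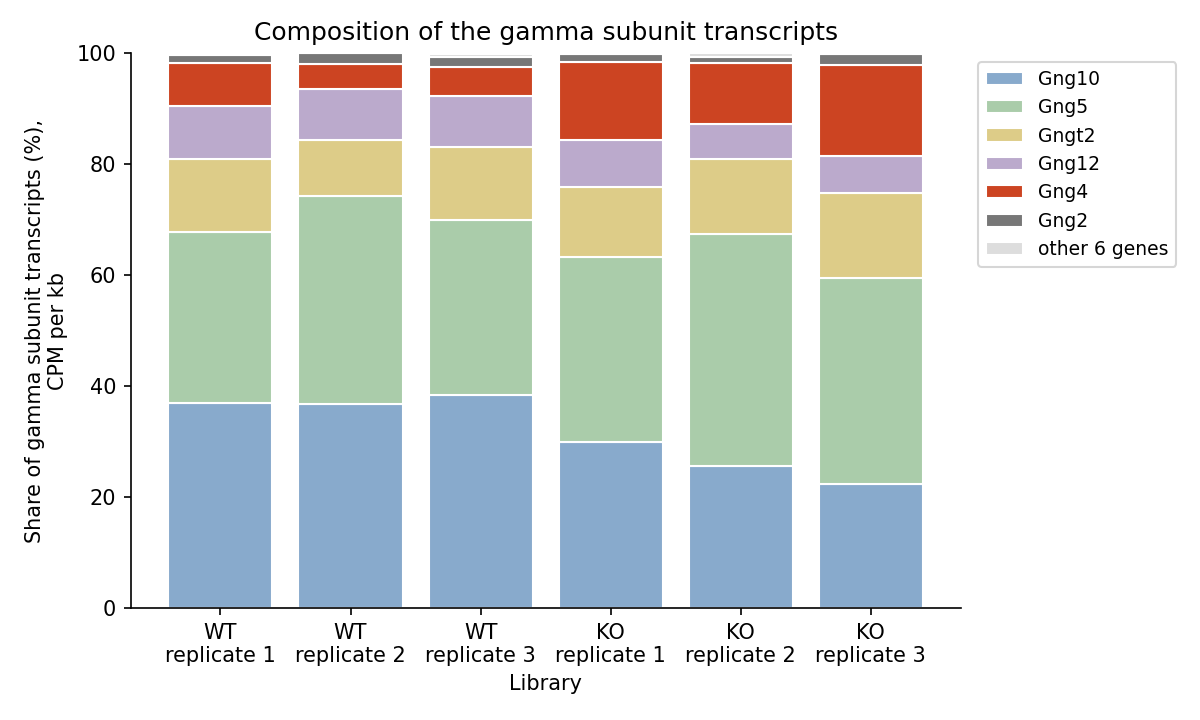
Share of each gamma subunit (stacked bars, percent of the summed CPM per kb) in each of the 6 libraries. The Gng4 segment spans 4.51 to 7.79% in WT and 11.0 to 16.4% in KO, and the Gng10 segment is smaller in all 3 KO libraries (22.4 to 30%) than in all 3 WT libraries (36.9 to 38.4%).

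Ratios within a library do not depend on the scaling between libraries, and those of Gng4 to each other tested gamma subunit did not overlap between the groups. Because Gng4 was chosen by its difference between the groups, these ratios describe that same difference and are no separate support for it. Gng4 over Gng10 was 0.122 to 0.211 in WT and 0.430 to 0.732 in KO, and Gng4 over Gng2 was 2.29 to 5.21 in WT and 8.26 to 10.6 in KO, each in CPM per kb. Over Gngt2 it was 0.396 to 0.589 in WT and 0.811 to 1.12 in KO. The narrowest gap was against Gng5, at 0.121 to 0.253 in WT and 0.264 to 0.441 in KO, where KO replicate 2 came close to WT replicate 1.

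Beta subunits are the fixed partners of gamma, and the abundant ones had nearly the same shares in both groups. Gnb1 (ENSMUSG00000029064, chromosome 4, 155491361 to 155559269) was at 471, 456 and 496 CPM in WT, against 435, 597 and 594 CPM in KO, with a log2 fold change of 0.19 ± 0.14. Gnb2 (ENSMUSG00000029713, chromosome 5, 137528127 to 137533510) was at 296, 289 and 301 CPM in WT, against 281, 370 and 392 CPM in KO, with a log2 fold change of 0.23 ± 0.14. In both, KO replicate 1 was the lowest of the 6 libraries and KO replicates 2 and 3 were the highest, so the groups overlapped. Gnb4, the other abundant beta gene, was at 602, 497 and 618 CPM in WT, against 585, 731 and 709 CPM in KO (0.24 ± 0.14, adjusted p = 0.838). Per length Gnb1 held 45.6 ± 0.607% of beta transcripts in WT and 44.8 ± 0.730% in KO, Gnb2 35.6 ± 0.95% and 36.0 ± 0.869%, and Gnb4 18.4 ± 1.34% and 18.9 ± 0.972%. These shares differed between the groups by about the spread between libraries or less. Their size depends on the length used. All annotated exons hold 4268 bases for Gnb1, 3402 for Gnb2 and 12692 for Gnb4. The longest transcript holds 3143, 1860 and 5997 bases, and beta shares by that length were not computed. Gnb5, which joins a subset of RGS proteins in place of gamma, averaged 2.93 ± 0.211 CPM in WT libraries and 2.88 ± 0.552 CPM in KO libraries, and Gnb3 was at 0 throughout.

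Alpha subunits of the Gi class inhibit adenylyl cyclase and carry chemokine receptor signals in leukocytes, and Gnai2 was the most abundant of all subunits per length. Gnai2 (ENSMUSG00000032562, chromosome 9, 107614125 to 107635367) was at 672, 721 and 742 CPM in WT, against 706, 946 and 1036 CPM in KO. Again KO replicate 1 fell within the WT range and KO replicates 2 and 3 above it, with a log2 fold change of 0.33 ± 0.15. Gnai3 (ENSMUSG00000000001, chromosome 3, 108107280 to 108146146) was at 293, 243 and 306 CPM in WT, against 311, 352 and 397 CPM in KO. Its groups did not overlap, though WT replicate 3 and KO replicate 1 differed by little, and the log2 fold change was 0.33 ± 0.14. Gna13 (ENSMUSG00000020611, chromosome 11, 109362831 to 109401369) was at 259, 402 and 318 CPM in WT, against 281, 325 and 308 CPM in KO. All 3 KO values lay inside the WT range, with a log2 fold change of -0.10 ± 0.16, which was 0.07 without WT replicate 2.

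Per length, Gnai2 held 45.2 ± 0.488% of alpha transcripts in WT and 48.1 ± 2.72% in KO, Gnai3 20.7 ± 2.50% and 22.1 ± 0.991%, and Gna13 12.2 ± 2.52% and 9.74 ± 0.891%. Gnas, the stimulator of adenylyl cyclase, was the third alpha subunit per kb of all annotated exons in both groups. It was at 60.0 ± 1.43 CPM per kb in WT and 69.0 ± 8.09 CPM per kb in KO. Its range overlapped that of Gna13 in WT. By that length the order Gnai2, Gnai3, Gnas, Gna13, Gna12 was the same in both groups. The place of Gnas depends on the length used, since its annotated exons hold 11186 bases and its longest transcript 3947. Both lengths are 3262 bases for Gnai3, and mean CPM in WT was 671 for Gnas against 281 for Gnai3. Alpha ranks and shares by longest transcript were not computed.

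Of the 10 subunit genes that passed the filter and are not members, none passed the test at an adjusted p under 0.05. Gnal, the alpha subunit of olfactory neurons, had the smallest p among them, at 5.22, 5.88 and 3.65 CPM in WT, against 1.88, 0.876 and 3.26 CPM in KO, with a log2 fold change of -1.38 ± 0.48 (edgeR adjusted p = 0.834). Gnaq, which activates phospholipase C beta, averaged 30.6 ± 2.81 CPM in WT libraries and 24.2 ± 4.48 CPM in KO libraries (-0.33 ± 0.19, adjusted p = 0.842). Gnas had a log2 fold change of 0.20 ± 0.13, Gna12 of -0.10 ± 0.17, Gna11 of -0.05 ± 0.26, Gnao1 of 0.04 ± 0.49 and Gna15 of 0.12 ± 1.27. Gna15 was at or under 1.46 CPM in every library, Gnaz, Gnat1 and Gnat2 did not pass the filter and were at or under 1.23 CPM, and Gnai1, Gnat3 and Gna14 were at 0 in all. Exons of Gna12 share 13.3% of their bases with Amz1, those of Gnas 13.1% with Gm20721 and those of Gnal 7.63% with Mppe1, all on the opposite strand, so these counts are uncertain.

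**Figure D3:**
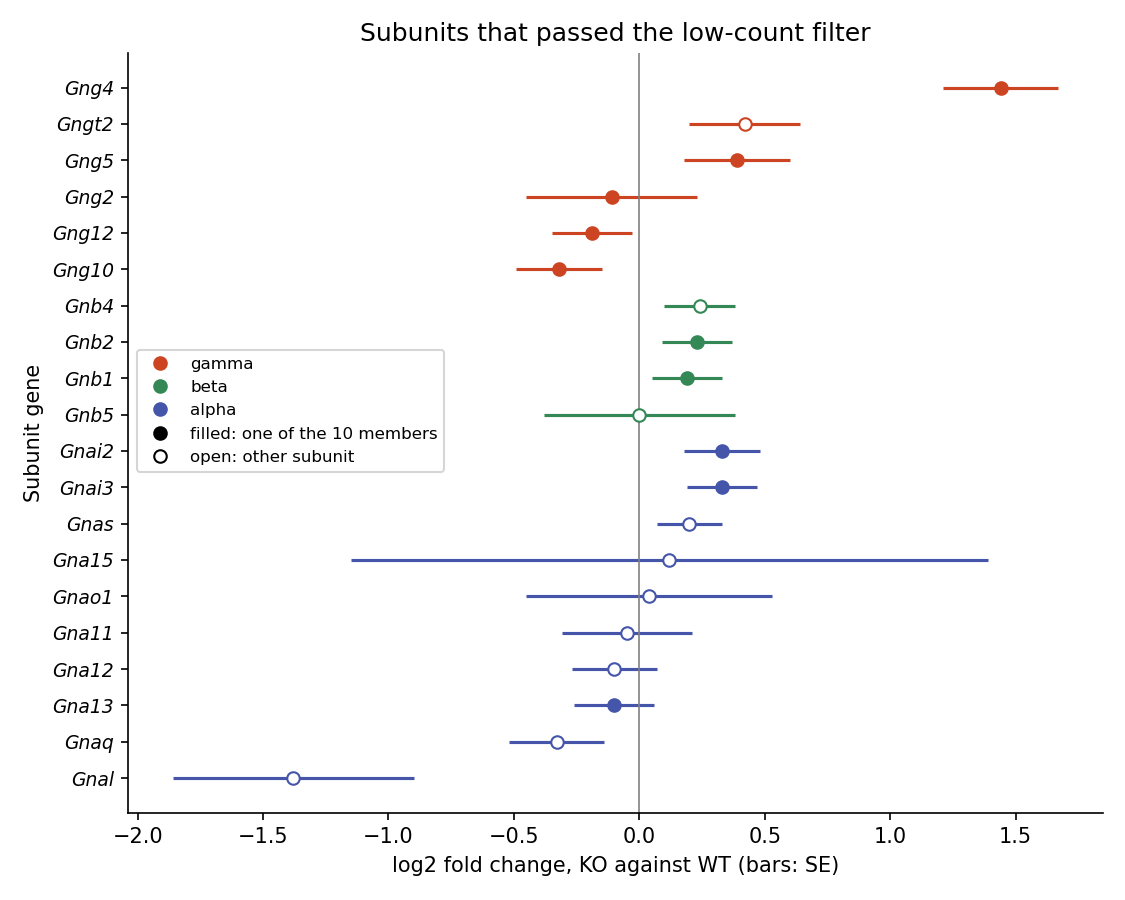
Log2 fold change of KO against WT (x axis, bars for the SE) of the 20 subunit genes that passed the low-count filter, by class. Gng4 stands at 1.44, and the other 19 lie between -1.38 (Gnal) and 0.42 (Gngt2).

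These values stand against the whole comparison as follows. edgeR's quasi-likelihood test covered 12568 genes, of which 0 (0%) passed at an adjusted p under 0.05 and 725 (5.77%) had an unadjusted p below that value. DESeq2 called 10 genes and limma-voom 0. The groups did not overlap for 1338 genes (10.6%), of which 686 (5.46%) were higher and 652 (5.19%) lower in KO. Among the 10 members the groups did not overlap for 4, with Gng4 and Gnai3 higher and Gng10 and Gng12 lower. Since Gng4 was chosen by this contrast, and the members with earlier results of these data known, nothing is read from that count. Among the 10 subunits that are not members, Gnal and Gnaq did not overlap, both lower in KO.

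A second pattern, noticed after the values were seen, was that KO replicates 2 and 3 both lay above the other 4 libraries. It held for 6 of the 10 members (Gng4, Gng5, Gnb1, Gnb2, Gnai2 and Gnai3) and for 3 of the 10 other tested subunits (Gngt2, Gnb4 and Gnas), and for 1711 of all genes tested (13.6%). The same libraries had the highest sums of mature dendritic cell markers, and the part of those in the subunit levels was not tested. In KO replicate 1 Gng4 was at 35 CPM against a WT maximum of 20.1 CPM and Gnai3 at 311 CPM against 306 CPM, while the other 4 were within or below the WT range. Because this pattern puts KO replicates 2 and 3 highest, leaving out KO replicate 1 must raise the log2 fold changes of these genes and leaving out 1 of the others can lower them. Gng5 had a log2 fold change of 0.59 with KO replicate 1 left out but 0.17 with KO replicate 2 left out, and Gnb1 had 0.33 and 0.10. Without KO replicate 1 Gnb2 was at 0.36 and Gnai2 at 0.48, and on leaving out KO replicate 3 they were at 0.14 and 0.21. Gnai3 went from 0.41 without KO replicate 1 to 0.23 without KO replicate 3, and Gng4 from 1.55 to 1.25.

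Other genes of the pathway, from 6 lists written by function, did not pass the test in either direction. Of their 152 genes 101 passed the filter, 45 lay above 0 and 56 below, and the median log2 fold change was -0.03 where that of all genes was 0.00. Before adjustment 4 were higher in KO and 5 lower with a p under 0.05, which is 9 of 101 where 2.71% of all genes were higher and 3.06% lower. That count fell to 4 on leaving out WT replicate 1 or KO replicate 3, and to 5 on leaving out KO replicate 2.

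The machinery that folds G proteins and finishes gamma subunits was measured in all its 10 listed genes, 7 above 0 and 3 below, with a median log2 fold change of 0.03. Rce1, the protease that trims the end of CaaX proteins after lipid attachment, was at 29.2, 25.8 and 34.2 CPM in WT, against 35.4, 45.8 and 34.9 CPM in KO (0.39 ± 0.18, edgeR adjusted p = 0.834). Its groups did not overlap, by less than 1 CPM. Zmpste24, another CaaX protease, was at 30.6 ± 5.19 and 25.0 ± 3.13 CPM (-0.29 ± 0.19, edgeR adjusted p = 0.853).

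Regulators of the alpha subunits and receptors had medians near that of all genes. Of the RGS and GoLoco list, whose members speed GTP hydrolysis or hold alpha subunits in the GDP state, 13 of 23 passed the filter, with 7 above 0 and a median of 0.01. Rgs10 was at 153, 137 and 137 CPM in WT, against 149, 229 and 169 CPM in KO (0.36 ± 0.16), and Rgs19 was at 98.6 ± 10.1 and 118 ± 15.1 CPM (0.26 ± 0.14). Of the receptor kinases and arrestins, which silence engaged receptors, 7 of 8 passed the filter, with a median of 0.05. Arrb2 was at 260, 256 and 277 CPM in WT, against 279, 313 and 332 CPM in KO (0.22 ± 0.12), and Arrb1 at 16.3 ± 3.89 and 11.5 ± 3.97 CPM (-0.45 ± 0.29). All 4 had an edgeR adjusted p of 0.834 or 0.853.

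The effector list had more genes below 0 than above, 14 against 6 of 20 tested, and a median of -0.16. Both of its genes with the smallest p-values encode phospholipase C beta enzymes, which release calcium-mobilizing messengers downstream of Gq and of beta-gamma pairs. Plcb4 was at 22.4, 20 and 12.5 CPM in WT, against 31.8, 28.8 and 38.4 CPM in KO, so that every KO library was above every WT library (0.85 ± 0.23, adjusted p = 0.834). Plcb2 was lower in every KO library, at 11.0, 7.78 and 6.93 CPM in WT, against 5.50, 4.91 and 5.64 CPM in KO (-0.69 ± 0.31, adjusted p = 0.834). Neither passed the edgeR test over all genes.

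Receptors were measured in 12 of 18 chemokine receptor genes, 4 above 0 and 8 below with a median of -0.39, and in 39 of 63 other leukocyte receptors, 17 above and 22 below with a median of -0.05. Xcr1, the receptor that marks cDC1s, was at 13.5, 44.6 and 13.1 CPM in WT, against 9.42, 5.72 and 11.4 CPM in KO, with every KO library below every WT library and WT replicate 2 far above the rest (-1.43 ± 0.59). Ccr2, a receptor of monocytes, was at or under 5.35 CPM in every library (-1.09 ± 0.56). P2ry13, an ADP receptor, was at 7.14, 3.85 and 0.900 CPM in WT and at 0.435, 1.11 and 0.970 CPM in KO (-2.20 ± 0.80), and P2ry14, a receptor for UDP-sugars, was at 5.52 ± 0.617 and 2.52 ± 1.31 CPM (-1.08 ± 0.42). All 4 had an edgeR adjusted p of 0.834.

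**Figure D4:**
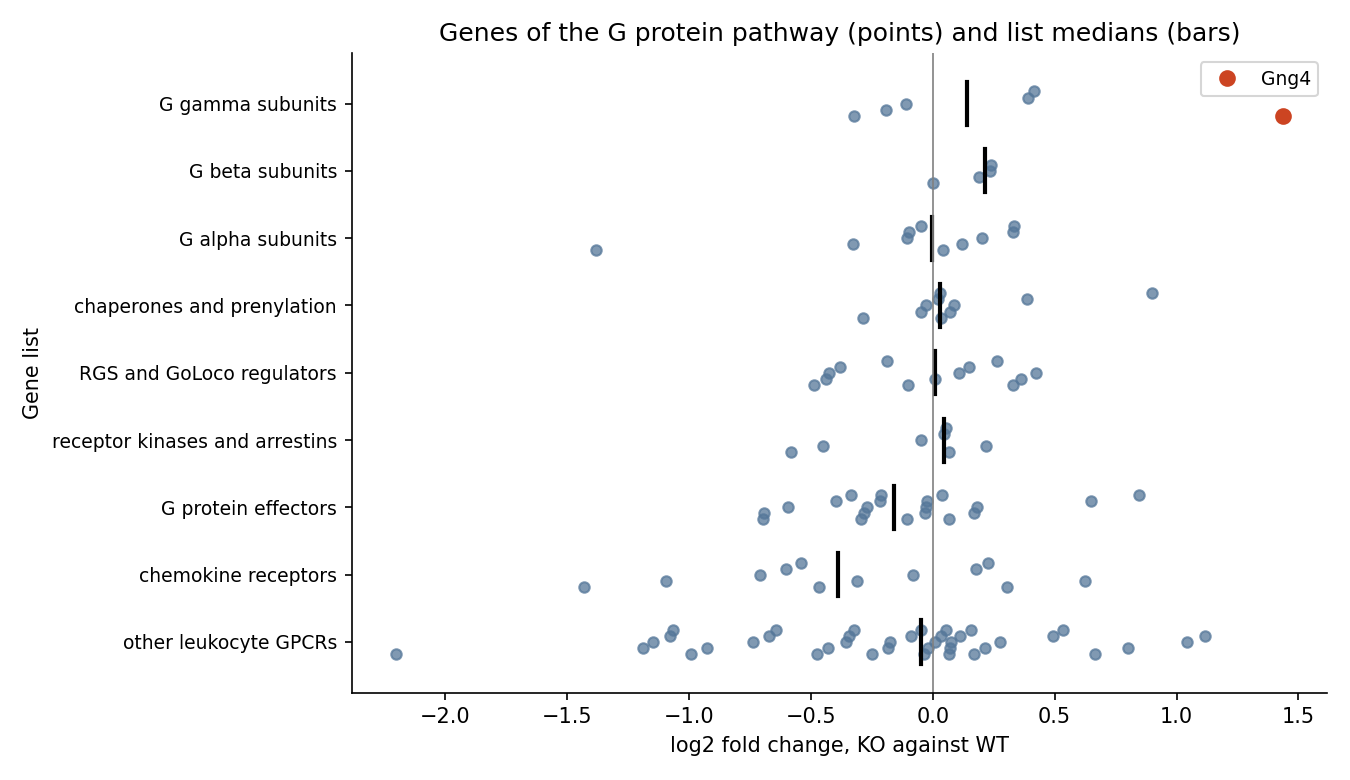
Log2 fold change of KO against WT (x axis) of each tested gene in the 9 lists of G protein subunits and pathway genes, with a bar at each list's median and Gng4 in red. Medians range from -0.39 for chemokine receptors to 0.21 for beta subunits, and Gng4 at 1.44 is to the right of every other point.

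Genes with a profile like that of Gng4 over the 6 libraries were ranked by Pearson correlation of log2 CPM, among the 9210 named protein-coding genes whose mean level reached 5 CPM. All points share the same libraries and group difference, so the ranking is a description. The 10 highest were Il20rb (r = 0.985), Psip1 (0.982), Ptdss2 (0.980), Stx4a (0.978), Phyh (0.976), Cwc27 (0.975), Cpne2 (0.975), Anxa7 (0.974), Sergef (0.974) and Thap11 (0.972). In each of them every KO library was above every WT library, as held for 686 of all genes tested (5.46%). That largely follows from ranking by likeness to Gng4, whose own groups do not overlap. Their differences were smaller than that of Gng4, with log2 fold changes from 0.19 ± 0.11 for Anxa7 to 0.71 ± 0.31 for Il20rb. None of the 10 is a G protein subunit. Among the subunits the correlation with Gng4 was highest for Gnai3 (0.841, at rank 238) and Gngt2 (0.784, at rank 436), and lowest for Gng10 (-0.844), Gnaq (-0.787) and Gng12 (-0.740).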

How the data were processed

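RNA of sorted cells was extracted with Trizol and read as 150-base pairs, per the labels' protocols. The deposited values are raw counts for each Ensembl gene, made by the authors with HISAT2 2.0.5 and HTSeq on mm10, per the submitters' processing notes. The sources used here do not give the HTSeq version, its annotation or its strand setting. Each count column was assigned by the sequencing label that it shares with a sample's description. GENCODE M21 supplied symbols, positions and exon lengths for 32235 of 32285 features (99.8%), and unnamed features stayed in the fit.

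The 12568 genes that passed filterByExpr were normalized by TMM. KO was compared with WT by glmQLFit (robust, legacy = FALSE) and glmQLFTest of edgeR 4.0.16 under R 4.3.3, and p-values were adjusted by Benjamini-Hochberg over all of these genes, with 0.05 as the limit. Each SE was computed as the absolute log2 fold change divided by the square root of F. The test was run on simulated counts with known changes, drawn independently for each gene and library. That check does not cover shifts shared by many genes among libraries of the same group. Per-length levels are CPM per kb of exon union, and correlations used log2 CPM with a prior count of 2. Where a symbol had several features, the one with the most counts was used.

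The members, the 9 pathway lists, the 11 marker lists and the tests were chosen with earlier results of these data known. Named genes were the 10 members, the other subunits that passed the filter, Vps33b, the 2 tested genes with the smallest p in each other list, and the 10 genes most like Gng4. The chi-square per gene was 17.1 or more between any 2 libraries, far above sampling noise, so all 6 were kept as separate samples. The lowest value was between WT replicate 1 and KO replicate 1. KO replicate 1 had 17.1, 27.1 and 26.9 with WT replicates 1 to 3, against 39.3 and 40.3 with KO replicates 2 and 3. Its correlations of log2 CPM were 0.955, 0.945 and 0.952 with WT replicates 1 to 3, and 0.950 and 0.928 with KO replicates 2 and 3. KO replicate 2 had 0.955, 0.948 and 0.956 with WT replicates 1 to 3, and 0.948 with KO replicate 3. For KO replicate 3 they were 0.944, 0.931 and 0.941 with WT replicates 1 to 3. Each other library had its lowest or equal lowest correlation with KO replicate 3. Same-numbered WT and KO libraries did not deviate together (r = 0.00519, 0.0281 and -0.00126 for replicates 1, 2 and 3), so the numbers were not used as pairs.

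Results were recomputed with RLE or upper-quartile scaling, without the filter, with a minimum of 1 CPM in 3 libraries, without robust estimation, with DESeq2 1.42.0, with limma-voom (limma 3.58.1), with a replicate block and with each library left out in turn. The legacy quasi-dispersion of edgeR and the pathway count under each setting were added after seeing the data. Library totals of 11755944 to 18450678 counts set the precision, and intervals and limits on counts of 0 cover counting error only.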

Additional observations from a re-analysis of the deposited data

How the results depend on the processing

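The log2 fold change of Gng4 was 1.25 to 1.68 over 15 alternatives, and its share of gamma transcripts was 7.98 percentage points higher in KO, 7.48 with the longest transcript as length, 10.1 without length scaling and 6.70 to 9.39 with 1 library left out. All other members kept their sign in 15 of 15 alternatives, except Gng2 (12 of 15, -0.39 to 0.03) and Gna13 (14 of 15, -0.24 to 0.07). Every alternative used these same libraries or all but 1 of them, so a kept sign is no separate support for a difference. Where the groups do not overlap, leaving out 1 library can hardly change the sign. Genes called numbered 0, against 3 without the filter and 10 by DESeq2, and 0 to 7 with 1 library left out, with 7 without KO replicate 1 and 1 without KO replicate 2 or WT replicate 3. Genes at an unadjusted p under 0.05 numbered 725, and 376 to 1621 with 1 library left out: leaving out KO replicate 1 gave 1621, KO replicate 2 gave 376 and KO replicate 3 gave 444. Pathway genes at that threshold numbered 9, against 5 by limma-voom and 4 to 12 with 1 library left out, with 12 without KO replicate 1. Genes whose groups did not overlap numbered 1338, and 1307 to 1355 under other scalings. The cause of these shifts was not tested. With the replicate number as a block, 0 genes were called, 942 had an unadjusted p under 0.05, 9 of them pathway genes, and Gng4 was at 1.45, so the block changed no call. At this depth a subunit with no count in a library may still be at up to 0.163 to 0.255 CPM there.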

Other observations

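The genes beside Gng4 on chromosome 13 were read for the same comparison, 3 tested genes on each side. Lyst, which encodes a regulator of lysosome size and ends 5.26 kb before Gng4, was at 152, 124 and 159 CPM in WT and at 124, 99.5 and 102 CPM in KO, with a log2 fold change of -0.42 ± 0.15 (edgeR adjusted p = 0.834). Its direction was opposite to that of Gng4, and WT replicate 2 and KO replicate 1 met. Nid1, 272 kb before Gng4, had a log2 fold change of -0.72 ± 0.37 (edgeR adjusted p = 0.834), and Gpr137b, 390 kb before it, of 0.03 ± 0.15. On the other side Gm47882 at 34.6 kb, B3galnt2 at 127 kb and Tbce at 170 kb had log2 fold changes of -0.15 ± 0.17, -0.05 ± 0.32 and 0.09 ± 0.14. In each of these 6 neighbours the groups overlapped.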
